A study of Mus musculus with 18 samples.

Results

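The Slc25a genes encode the mitochondrial solute carriers, a family of related proteins that move metabolites across the inner mitochondrial membrane. They were taken as every row of the deposited table whose gene symbol starts with Slc25a, which gave 43 of 16909 genes. Of these, 38 passed the filter on low counts and were among the 12465 genes tested. The other 5 were not tested and had few reads: the largest count in any library was 15 for Slc25a53, 6 for Slc25a34, 7 for Slc25a2, 2 for Slc25a31 and 2 for Slc25a18. Family genes under other symbols (Ucp1, Ucp2, Ucp3, Mtch1 and Mtch2) are not among the 43 and are described at the end.

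Mouse bone marrow macrophages were the source of the poly(A) RNA, in 4 groups: UVABs (n = 5), STSABs (n = 5), LPS (n = 5) and Con (n = 3). ABs are the apoptotic bodies of hucMSC, the mesenchymal stem cells that the study used, and were induced with UV in UVABs and with STS in STSABs. The labels name both as anti-inflammatory treatments, LPS as the positive control for inflammation and Con as the mock group. LPS is the bacterial lipopolysaccharide that Toll-like receptor 4 recognises. The sources used here do not state whether the cells given ABs also received LPS, nor the doses, the times, or the strain, sex and age of the mice. The labels also do not say whether libraries of a group came from separate cultures, so p-values measure only the spread between these libraries.

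Carriers of this family span the inner membrane as a bundle of helices made of repeats, and most exchange a compound in the matrix for another in the cytosol. In macrophages they stand where cytosolic and mitochondrial metabolism meet. The citrate carrier supplies cytosolic citrate, from which acetyl-CoA for fatty acid synthesis is made, and the aspartate-glutamate carriers serve the malate-aspartate shuttle, which passes reducing equivalents into mitochondria. Others carry ADP and ATP, phosphate, nucleotides, coenzyme A, NAD, folate, glutathione, acylcarnitines and iron.

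Total counts ran from 17588400 to 18675300 per library. Levels are given as CPM, read counts rescaled to a common library size after TMM, where TMM is edgeR's correction for differences in RNA composition. Its mean factor was 0.928 in UVABs, 0.932 in STSABs, 0.902 in LPS and 1.51 in Con, so values against Con depend on the scaling more than others do. The Slc25a genes together took 0.191 to 0.209% of counts in UVABs, 0.191 to 0.209% in STSABs, 0.171 to 0.179% in LPS and 0.247 to 0.264% in Con. Their summed level was 2040 to 2278 CPM in UVABs, 2043 to 2236 in STSABs, 1901 to 1991 in LPS and 1636 to 1749 in Con, so that Con was highest as a share of counts and lowest after TMM. All 10 macrophage markers were detected in each group, with summed levels of 10829 to 12282 CPM in UVABs, 10046 to 11256 in STSABs, 12585 to 13987 in LPS and 11205 to 12102 in Con. Most of each macrophage sum was Lyz2, which averaged 9551 CPM in LPS and 8002 in Con. Cd68, Fcgr1, Mertk and Cd14 (723 against 149 CPM) also averaged higher in LPS than in Con. Adgre1, Csf1r (255 against 791 CPM), Itgam, C1qa and Mrc1 averaged lower in LPS. The 8 markers of neutrophils and their precursors were also detected in each group, and summed to 3181 to 4204 CPM in UVABs, 3251 to 4711 in STSABs, 1812 to 2524 in LPS and 1185 to 1481 in Con. Of these, Ltf alone averaged lower in LPS (103 CPM) than in Con (165 CPM). Dendritic cell markers summed to 53.3 to 70.4 CPM in UVABs, 58.4 to 70.7 in STSABs, 47.6 to 55.7 in LPS and 34.5 to 38.4 in Con. Most of each dendritic sum was Zbtb46, while Flt3, Clec9a and Siglech averaged higher in Con than in LPS. Osteoclast markers summed to 237 to 313 CPM in UVABs, 233 to 268 in STSABs, 308 to 349.8 in LPS and 224 to 241 in Con, and those of stromal cells to 15.2 to 24.7 CPM in UVABs, 15.6 to 21.2 in STSABs, 11.6 to 12.7 in LPS and 48.01 to 51.5 in Con. Of the osteoclast markers, Ocstamp and Dcstamp averaged higher in Con than in LPS. The stromal sum in Con was almost all Lepr, which averaged 47.5 CPM in Con and 5.28 in LPS. Every other stromal marker averaged lower in Con than in each other group. Erythroid markers summed to 9.52 to 14.8 CPM in UVABs, 12.2 to 14.5 in STSABs, 7.35 to 11.1 in LPS and 3.0 to 5.20 in Con, and Alas2 was at or near 0 in every group. B cell markers did not exceed 6.26 CPM and T and NK cell markers 2.02 CPM in any library. In such bulk samples, fewer cells of a type and less RNA per cell cannot be told apart.

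LPS against Con asks what the inflammatory stimulus did to these carriers. The glutamate carrier Slc25a22 rose most, with a log2 fold change of 3.95 ± 0.10 (SE), followed by Slc25a25, Slc25a12, Slc25a43, Slc25a1 and Slc25a44, all at least 2-fold higher. Falls of at least 2-fold, beside Slc25a27, were those of the ornithine carrier Slc25a15 (-2.11 ± 0.12), the pyrimidine nucleotide carriers Slc25a33 and Slc25a36, the ATP-Mg/phosphate carriers Slc25a23 and Slc25a24, and Slc25a30, Slc25a35 and Slc25a42. Slc25a27 is counted among the falls in each comparison with Con, though it passed the filter on low counts through Con alone. Of 38 members tested, 15 rose and 20 fell by edgeR's quasi-likelihood test at an adjusted p under 0.05, where 40.0% of all tested genes rose and 43.0% fell. The members' median log2 fold change was -0.27, and that of all tested genes -0.03. The 3 members that did not pass were Slc25a26 (0.00), Slc25a29 (-0.11) and Slc25a47 (0.45). At least 2-fold changes were called in 6 of 38 members upward and 9 downward, and in 2325 of all 12465 tested genes upward and 2615 downward. The split between higher and lower depended on the scaling. Library totals in place of TMM left 6 members higher and 29 lower, and upper-quartile scaling 10 and 20.

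**Figure D1:**
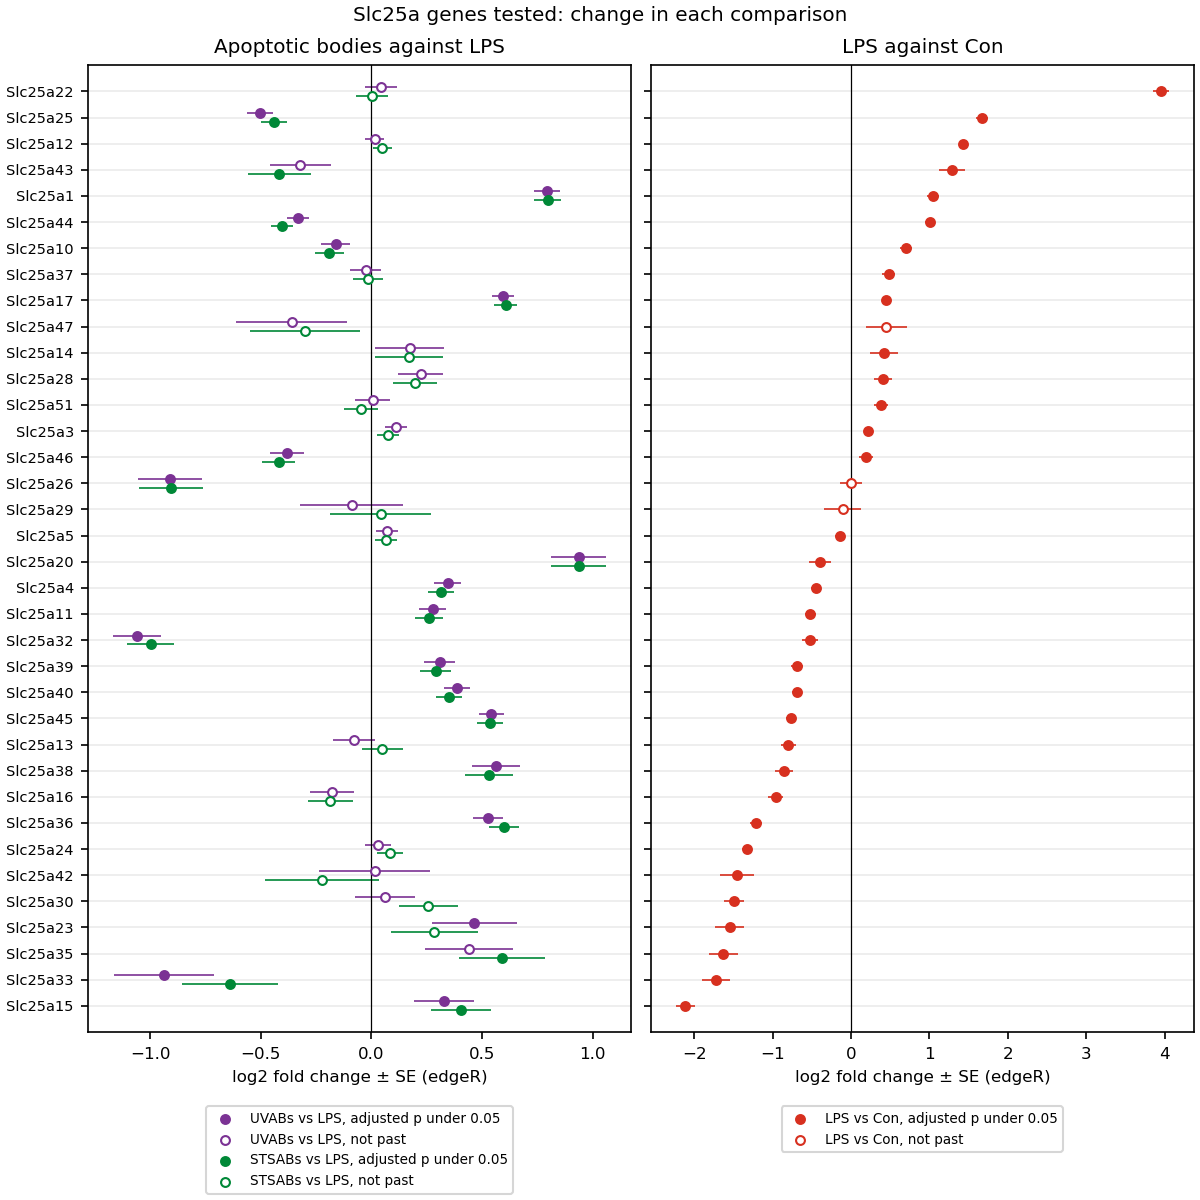
Log2 fold changes of 36 Slc25a genes with their standard errors, in UVABs and STSABs against LPS (left) and in LPS against Con (right), sorted by LPS against Con. Filled points passed an adjusted p of 0.05 and open points did not. Slc25a27 is not drawn because LPS held 3 counts of it. Slc25a22 stands alone at the top right at 3.95, and the UVABs and STSABs points of a gene lie close to each other; with library totals in place of TMM all points of LPS against Con shift left, and 6 members stay higher.

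Both kinds of ABs against LPS ask whether the carriers differ from the inflammatory state. The acylcarnitine carrier Slc25a20 (0.94 ± 0.12 in UVABs and 0.94 ± 0.12 in STSABs), the citrate carrier Slc25a1 (0.79 ± 0.06 in UVABs and 0.80 ± 0.06 in STSABs) and the peroxisomal carrier Slc25a17 rose most. The folate carrier Slc25a32 (-1.06 ± 0.11 in UVABs and -0.999 ± 0.11 in STSABs) and the S-adenosylmethionine carrier Slc25a26 fell most, with Slc25a33. In UVABs 12 of 38 members rose and 8 fell, where 28.6% of all tested genes rose and 28.8% fell. In STSABs 12 rose and 9 fell, where 28.4% of all tested genes rose and 29.0% fell. The members' median log2 fold change was 0.05 in UVABs and 0.07 in STSABs, and that of all tested genes 0.00 and -0.01. Both comparisons share the LPS libraries, so their values stand side by side and are not independent. The neutrophil markers were higher in both AB groups than in LPS, as given above, and their part in these differences was not tested. Among members given with every library, Slc25a20, Slc25a38, Slc25a11, Slc25a4 and Slc25a28 were highest in replicate 2 of both AB groups. So were Slc25a3, Slc25a15, Slc25a22, Slc25a37, Slc25a39 and Slc25a51. Leaving out replicate 2 in both groups left 10 members higher in UVABs and 12 in STSABs.

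UVABs against STSABs asks whether the way of inducing apoptosis mattered. None of the 38 members passed, by edgeR at an adjusted p of 0.05 or at an unadjusted p of 0.05, where 0% of all tested genes rose and 0% fell. DESeq2 and limma-voom also called 0 members, and 198 of 12465 genes had an unadjusted p under 0.05 in edgeR. That is fewer than the 1 in 20 that chance gives. These fits did not use the replicate numbers, though same-numbered libraries of the 2 groups deviated together. With the replicate number as a block, edgeR also called 0 genes. For the 25 members with at least 5 CPM in either group, log2 fold changes of UVABs over STSABs ran from -0.128 for Slc25a13 to 0.07 for Slc25a44. Their 95% intervals reached no lower than -0.32 and no higher than 0.25. For the 13 members with fewer reads, log2 fold changes ran from -0.30 for Slc25a33 to 0.24 for Slc25a42, and the widest interval, that of Slc25a27, ran from -1.16 to 1.41. The intervals leave room for differences of these sizes.

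Promoter sequences are shown for 4 members with large changes, each with a short motif of a factor known in LPS-stimulated macrophages or in stress responses. They come from RefSeq on build GRCm38.p6, whereas the deposited counts were made on mm39, and hold 300 bases from 250 before to 50 after a transcript start, written 5' to 3' on the gene's strand. Of the 43 members, 33 had a window, 42 windows in all. The capitals mark the motif, and a window was chosen because it held the motif. In Slc25a22 (1 of its 3 windows, chr7:141435326-141435625, minus strand) they mark the interferon-stimulated response element ISRE, 79 bases before the start. In Slc25a25 (1 of its 3 windows, chr2:32424017-32424316, minus strand) and Slc25a36 (chr9:97110992-97111291, minus strand) they mark the cAMP response element CRE, 150 and 161 bases before the start. In Slc25a1 (chr16:17928170-17928469, minus strand) they mark an NF-kB motif, 160 bases before the start. None of these matches overlapped another motif searched.
Slc25a22: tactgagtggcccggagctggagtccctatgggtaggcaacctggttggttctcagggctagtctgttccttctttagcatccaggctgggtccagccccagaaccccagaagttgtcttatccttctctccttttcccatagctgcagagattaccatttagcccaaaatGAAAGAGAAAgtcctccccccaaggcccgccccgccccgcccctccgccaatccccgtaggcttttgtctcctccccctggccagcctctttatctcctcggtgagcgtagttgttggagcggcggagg
Slc25a25: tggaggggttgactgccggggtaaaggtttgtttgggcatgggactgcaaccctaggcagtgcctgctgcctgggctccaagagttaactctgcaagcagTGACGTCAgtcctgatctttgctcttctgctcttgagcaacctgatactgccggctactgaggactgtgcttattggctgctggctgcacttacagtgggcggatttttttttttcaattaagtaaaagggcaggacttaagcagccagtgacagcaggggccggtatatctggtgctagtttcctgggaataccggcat
Slc25a36: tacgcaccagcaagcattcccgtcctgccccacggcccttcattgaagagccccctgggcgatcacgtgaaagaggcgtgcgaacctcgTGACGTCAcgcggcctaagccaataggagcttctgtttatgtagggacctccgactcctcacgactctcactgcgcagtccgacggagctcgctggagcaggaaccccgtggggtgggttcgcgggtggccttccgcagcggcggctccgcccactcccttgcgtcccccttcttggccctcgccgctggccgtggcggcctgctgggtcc
Slc25a1: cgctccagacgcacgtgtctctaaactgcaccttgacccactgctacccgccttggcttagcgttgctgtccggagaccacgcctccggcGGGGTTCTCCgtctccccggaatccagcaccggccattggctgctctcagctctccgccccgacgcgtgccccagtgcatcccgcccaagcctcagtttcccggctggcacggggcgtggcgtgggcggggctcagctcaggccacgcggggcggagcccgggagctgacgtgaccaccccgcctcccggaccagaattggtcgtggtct

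All motifs were searched on both strands, and matches are descriptions of letters. ISRE, searched as a pair of GAAA with any 2 letters between them, stood in windows of Slc25a22 and Slc25a15, genes that changed in opposite directions in LPS, and in 4.76% of the members' windows, 3.44% of all windows and 3.32% of windows of tested genes. CRE, TGACGTCA, stood in Slc25a25, which rose in LPS, and Slc25a36, which fell, and in 4.76% of the members' windows, 1.79% of all windows and 2.94% of windows of tested genes. The NF-kB motif stood in Slc25a1 and Slc25a10, both carriers of tricarboxylic or dicarboxylic acids, and in 4.76% of the members' windows, 4.51% of all windows and 5.36% of windows of tested genes. The GC box GGGCGG was in 88.1% of the members' windows, 35.7% of all windows and 60.8% of windows of tested genes. The E-box CACGTG was in 19.0% of the members' windows, 7.15% of all windows and 9.77% of windows of tested genes. AP-1 (TGANTCA) stood in Slc25a11 and Slc25a13, the sterol response element SRE (TCACNCCAC) in Slc25a18, and the NRF1 motif in Slc25a3 and Slc25a31, against 7.81%, 1.24% and 4.6% of all windows and 5.43%, 1.09% and 9.56% of windows of tested genes. The ATF4 motif TGATGNAA and the ERR motif TCAAGGTCA were in no member's window and in 3.97% and 0.423% of all windows.

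Counts of calls in this and the following role groups are read against the shares of all tested genes. In LPS against Con 40.0% of all tested genes rose and 43.0% fell. In the AB groups against LPS, 28.4 to 28.6% rose and 28.8 to 29.0% fell. Among the amino acid carriers, Slc25a22 and Slc25a12 rose in LPS against Con while Slc25a13 and Slc25a15 fell. In LPS against Con 3 of 7 tested members rose and 3 fell (3 and 4 with library totals), with a median log2 fold change of -0.11. Against LPS, 2 rose and 1 fell in UVABs (median 0.01), and 2 rose and 1 fell in STSABs (median 0.05). Slc25a22, which carries glutamate with a proton into the matrix, had 294, 326, 282, 262 and 293 CPM in UVABs, 286, 328, 285, 258 and 263 in STSABs, 266, 285, 304, 285 and 278 in LPS and 16.1, 17.4 and 21.5 in Con. Every library of UVABs, STSABs and LPS was far above the 3 Con libraries, and the 3 high groups overlapped. LPS was 15.4-fold above Con, with a log2 fold change of 3.95 ± 0.10 (adjusted p = 1.91e-19), and still 3.20 with library totals. Against LPS the gene was at 0.04 ± 0.07 (adjusted p = 0.653) in UVABs and 0.00 ± 0.07 (adjusted p = 0.979) in STSABs.

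Slc25a12 and Slc25a13 are the aspartate-glutamate carriers, which respond to calcium and serve the malate-aspartate shuttle. Slc25a12 had 153, 144, 161, 144 and 149.9 CPM in UVABs, 161, 155, 151, 152 and 151 in STSABs, 148, 148, 145, 153 and 149 in LPS and 56.1, 53.1 and 56.9 in Con. Its LPS and AB libraries overlapped and all lay above Con, and the log2 fold change of LPS over Con was 1.43 ± 0.05 (adjusted p = 3.93e-17). Slc25a13 had 10.7, 8.44, 9.80, 8.56 and 9.22 CPM in UVABs, 10.8, 9.97, 9.70, 10.8 and 9.81 in STSABs, 11.7, 9.33, 8.82, 11.3 and 8.22 in LPS and 17.9, 16.9 and 16.8 in Con. All Con libraries were higher than the others, and LPS stood at -0.80 ± 0.10 (adjusted p = 7.96e-08) against Con. Neither gene passed in UVABs or STSABs against LPS, with log2 fold changes of 0.01 and 0.05 for Slc25a12 and -0.08 and 0.05 for Slc25a13.

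Slc25a15, the ornithine-citrulline carrier of the urea cycle, had 2.91, 5.09, 4.04, 3.67 and 3.99 CPM in UVABs, 3.65, 4.50, 4.13, 4.09 and 4.41 in STSABs, 2.99, 3.15, 2.33, 3.54 and 3.68 in LPS and 13.6, 14.3 and 12.8 in Con. Con was high in every library, and the other groups overlapped. Slc25a15 had a log2 fold change of -2.11 ± 0.12 (adjusted p = 4.82e-13) in LPS over Con. It rose against LPS by 0.33 ± 0.14 (adjusted p = 0.0457) in UVABs and 0.40 ± 0.14 (adjusted p = 0.0148) in STSABs, both with overlapping groups. The UVABs call was lost in 15 of 29 alternatives (0.22 to 0.34), among them limma-voom and leaving out any 1 of LPS replicates 1, 2 and 3, STSABs replicates 3, 4 and 5, UVABs replicates 2, 3 and 5 and Con replicates 1 and 2. The STSABs call was lost without LPS replicate 3 (0.31). Slc25a38, which carries glycine for heme synthesis, had 21.3, 28.5, 22.9, 23.9 and 23.4 CPM in UVABs, 22.6, 31.3, 19.9, 23.3 and 20.2 in STSABs, 15.4, 15.3, 18.99, 17.2 and 14.2 in LPS and 30.2, 28.4 and 29.5 in Con. LPS libraries were the lowest, below those of both AB groups and Con without overlap. Slc25a38 stood at a log2 fold change of -0.85 ± 0.12 (adjusted p = 6.95e-07) in LPS over Con, and against LPS Slc25a38 was 0.56 ± 0.11 (adjusted p = 1.42e-04) in UVABs and 0.53 ± 0.11 (adjusted p = 2.70e-04) in STSABs. Slc25a44, a carrier of branched-chain amino acids, ran at 32.2 to 36.98 CPM in UVABs, 31.5 to 36.2 in STSABs, 42.3 to 46.1 in LPS and 21.4 to 22.8 in Con. It rose in LPS (1.01 ± 0.06, adjusted p = 5.21e-13) and fell against LPS in UVABs (-0.33 ± 0.05, adjusted p = 9.26e-06) and STSABs (-0.40 ± 0.05, adjusted p = 7.39e-07). Slc25a29, which carries basic amino acids, passed in no comparison with TMM and ran at 0.713 to 0.958 CPM in UVABs, 0.643 to 1.39 in STSABs, 0.674 to 1.20 in LPS and 0.796 to 1.08 in Con.

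The 3 citrate and dicarboxylate carriers tested were Slc25a1, Slc25a10 and Slc25a11, and all were called in each comparison with LPS. Calls were common among all tested genes: 40.0% rose and 43.0% fell in LPS against Con. In the AB groups against LPS, 28.4 to 28.6% rose and 28.8 to 29.0% fell. Of 3 tested members, 2 rose and 1 fell in LPS against Con (1 and 1 with library totals), and their median log2 fold change was 0.70. Against LPS, 2 rose and 1 fell in UVABs (median 0.28), and 2 rose and 1 fell in STSABs (median 0.26). Slc25a1, the citrate carrier, had 131, 134, 135, 117 and 127 CPM in UVABs, 137, 140.0, 134, 116 and 117 in STSABs, 73.2, 73.7, 78.1, 73.3 and 72.6 in LPS and 32.8, 35.9 and 39.1 in Con. The groups did not overlap except UVABs with STSABs, and the order was ABs, LPS, Con from high to low. Slc25a1 had a log2 fold change of 1.05 ± 0.07 (adjusted p = 9.58e-12) in LPS over Con, 0.79 ± 0.06 (adjusted p = 5.00e-10) in UVABs over LPS and 0.80 ± 0.06 (adjusted p = 4.48e-10) in STSABs over LPS. Slc25a10, which exchanges malate or succinate for phosphate, had 31.1, 32.7, 30.1, 28.2 and 31.3 CPM in UVABs, 31.9, 29.8, 30.01, 27.8 and 30.5 in STSABs, 32.9, 33.3, 37.3, 34.04 and 33.9 in LPS and 19.04, 19.8 and 24.5 in Con. LPS libraries were the highest and Con the lowest. For Slc25a10 the log2 fold change was 0.70 ± 0.08 (adjusted p = 1.95e-08) in LPS over Con, although -0.05 with library totals. The falls against LPS were small, -0.16 ± 0.07 (adjusted p = 0.0412) in UVABs and -0.19 ± 0.07 (adjusted p = 0.0164) in STSABs. Without LPS replicate 3, the highest library, neither passed (-0.13 and -0.16), and the UVABs call was also lost when any 1 of LPS replicates 4 and 5 and UVABs replicates 1, 3, 4 and 5 was left out.

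Slc25a11, the oxoglutarate-malate carrier of the malate-aspartate shuttle, had 70.8, 81.2, 65.5, 67.1 and 63.98 CPM in UVABs, 68.4, 76.8, 68.04, 65.1 and 66.03 in STSABs, 57.6, 59.6, 61.03, 57.5 and 52.2 in LPS and 81.2, 80.7 and 85.4 in Con. LPS libraries were below those of all other groups, and UVABs replicate 2 reached into the Con range. Slc25a11 stood at a log2 fold change of -0.52 ± 0.07 (adjusted p = 6.03e-07) in LPS over Con, 0.28 ± 0.06 (adjusted p = 7.99e-04) in UVABs over LPS and 0.26 ± 0.06 (adjusted p = 0.00141) in STSABs over LPS. Slc25a1 and Slc25a11 thus moved in opposite directions in LPS and in the same direction in ABs against LPS.

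Carriers of cofactors and of activated fatty acids were split in ABs. In LPS against Con 1 of 6 tested members rose and 4 fell (0 and 6 with library totals), with a median log2 fold change of -0.46. Against LPS, 3 rose and 3 fell in UVABs (median 0.01), and 3 rose and 3 fell in STSABs (median 0.01). Slc25a20, which brings acylcarnitines into the matrix for fatty acid oxidation, had 30.9, 42.3, 29.3, 26.1 and 28.02 CPM in UVABs, 30.9, 42.4, 28.99, 26.1 and 28.4 in STSABs, 18.1, 15.8, 15.01, 16.4 and 16.3 in LPS and 21.97, 20.9 and 21.4 in Con. Every AB library was above every LPS and Con library, and replicate 2 was the highest in both AB groups. Slc25a20 rose against LPS by 0.94 ± 0.12 (adjusted p = 1.56e-06) in UVABs and 0.94 ± 0.12 (adjusted p = 1.47e-06) in STSABs, and by 0.80 and 0.81 without replicate 2 of both AB groups. Slc25a20 had a log2 fold change of -0.39 ± 0.14 (adjusted p = 0.0140) in LPS over Con. Slc25a32, the folate carrier, had 3.40, 2.99, 4.10, 3.84 and 4.41 CPM in UVABs, 4.52, 3.89, 3.17, 4.09 and 3.88 in STSABs, 8.68, 6.79, 7.60, 8.10 and 7.98 in LPS and 12.2, 10.6 and 11.1 in Con. The AB libraries were lowest, LPS intermediate and Con highest, with no overlap. For Slc25a32 the log2 fold change was -0.53 ± 0.10 (adjusted p = 6.32e-05) in LPS over Con, -1.06 ± 0.11 (adjusted p = 3.96e-08) in UVABs over LPS and -0.999 ± 0.11 (adjusted p = 8.56e-08) in STSABs over LPS.

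Slc25a39, which imports glutathione into mitochondria, had 63.7, 70.96, 59.3, 62.4 and 59.2 CPM in UVABs, 60.6, 72.2, 63.8, 57.5 and 57.7 in STSABs, 50.2, 51.8, 52.6, 51.2 and 49.04 in LPS and 75.9, 76.7 and 92.8 in Con. LPS was lowest and Con highest, each without overlap with the AB groups. Slc25a39 had a log2 fold change of -0.68 ± 0.08 (adjusted p = 3.27e-08) in LPS over Con, 0.31 ± 0.07 (adjusted p = 6.76e-04) in UVABs over LPS and 0.29 ± 0.07 (adjusted p = 0.00113) in STSABs over LPS. Its close relative Slc25a40 ran at 55.5 to 67.5 CPM in UVABs, 55.1 to 67.5 in STSABs, 47.2 to 52.2 in LPS and 75.9 to 81.1 in Con, with -0.69 in LPS over Con and 0.39 and 0.35 in UVABs and STSABs over LPS, all past the threshold. The deposited counts of Slc25a40, like those of Slc25a37, were not whole numbers in any library, so they may share reads with other features and are uncertain. Slc25a26, which carries S-adenosylmethionine, ran at 1.58 to 2.04 CPM in UVABs, 1.26 to 2.26 in STSABs, 2.87 to 3.82 in LPS and 3.15 to 3.61 in Con. Its LPS and Con values overlapped (0.00 ± 0.14, adjusted p = 0.982), and it fell in UVABs (-0.91 ± 0.15, adjusted p = 1.75e-05) and STSABs (-0.91 ± 0.15, adjusted p = 1.79e-05) against LPS.

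The adenine nucleotide and phosphate carriers supply the ATP synthase with ADP and phosphate and export ATP. Of 6 tested members, 2 rose and 4 fell in LPS against Con (1 and 5 with library totals), and their median log2 fold change was -0.30. Against LPS, 2 rose and 1 fell in UVABs (median 0.09), and 1 rose and 1 fell in STSABs (median 0.08). Slc25a3, the phosphate carrier, had 335, 365, 329, 305 and 321 CPM in UVABs, 327, 343, 315, 316 and 311 in STSABs, 305, 313, 311, 297 and 307 in LPS and 248, 255 and 286 in Con. Con libraries were below all others, and LPS overlapped with both AB groups. Slc25a3 stood at a log2 fold change of 0.22 ± 0.06 (adjusted p = 0.00142) in LPS over Con, a direction that turned with upper-quartile scaling (-0.06) and library totals (-0.52). Against LPS, Slc25a3 was at 0.11 in UVABs and 0.07 in STSABs, neither past the threshold. The UVABs value passed with DESeq2's test (0.11), a stricter filter (0.12), only the groups compared (0.12) and without UVABs replicate 4 (0.14). Both values passed with library totals (0.15 in UVABs and 0.12 in STSABs). Slc25a4, the adenine nucleotide translocase of heart and muscle, had 112, 130.4, 114, 106 and 109 CPM in UVABs, 112, 123, 113, 107 and 104 in STSABs, 93.4, 85.1, 95.8, 89.99 and 85.6 in LPS and 116, 122 and 129.7 in Con. LPS libraries were lowest, and ABs overlapped with Con. Slc25a4 stood at a log2 fold change of -0.45 ± 0.07 (adjusted p = 2.53e-06) in LPS over Con, 0.34 ± 0.06 (adjusted p = 4.29e-05) in UVABs over LPS and 0.31 ± 0.06 (adjusted p = 1.20e-04) in STSABs over LPS.

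Slc25a5, the translocase of proliferating cells, had 366, 351, 363, 347 and 344 CPM in UVABs, 368, 332, 371, 359.6 and 339 in STSABs, 374, 332, 331, 341 and 309.9 in LPS and 366, 361 and 392 in Con. All 4 groups overlapped. The small fall in LPS against Con (-0.14 ± 0.06, adjusted p = 0.0247) was lost without LPS replicate 5 (-0.12) and without Con replicate 3 (-0.11). The gene was at 0.07 ± 0.05 (adjusted p = 0.244) in UVABs and 0.07 ± 0.05 (adjusted p = 0.260) in STSABs against LPS. A pseudogene of it, Slc25a5-ps, is known, so its counts may include reads of a near-identical copy.

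The ATP-Mg/phosphate carriers respond to calcium and adjust the adenine nucleotide pool of the matrix. Slc25a25 had 36.7, 33.3, 38.7, 38.3 and 41.4 CPM in UVABs, 38.6, 35.98, 43.3, 40.6 and 38.4 in STSABs, 52.6, 53.5, 55.9, 53.8 and 51.6 in LPS and 15.6, 17.3 and 17.5 in Con. LPS libraries were highest, ABs in between and Con lowest, without overlap. Slc25a25 had a log2 fold change of 1.67 ± 0.07 (adjusted p = 1.62e-15) in LPS over Con, -0.50 ± 0.06 (adjusted p = 2.66e-07) in UVABs over LPS and -0.44 ± 0.06 (adjusted p = 1.58e-06) in STSABs over LPS. Slc25a24 had 22.3, 25.8, 22.7, 26.4 and 25.4 CPM in UVABs, 24.9, 26.2, 24.98, 25.3 and 26.1 in STSABs, 26.04, 25.1, 22.9, 23.8 and 22.3 in LPS and 62.01, 60.8 and 57.3 in Con. Con was highest in every library, and the other 3 groups overlapped. Slc25a24 stood at a log2 fold change of -1.32 ± 0.06 (adjusted p = 8.01e-15) in LPS over Con, and against LPS Slc25a24 was at 0.03 ± 0.06 (adjusted p = 0.688) in UVABs and 0.08 ± 0.06 (adjusted p = 0.230) in STSABs. Slc25a23 ran at 1.43 to 2.61 CPM in UVABs, 1.70 to 2.03 in STSABs, 0.900 to 2.14 in LPS and 4.09 to 4.81 in Con. For Slc25a23 the log2 fold change was -1.55 ± 0.18 (adjusted p = 5.49e-08) in LPS over Con, and 0.28 ± 0.20 (adjusted p = 0.226) in STSABs over LPS. In UVABs over LPS it was 0.46 ± 0.19 (adjusted p = 0.0439). That call was lost when any 1 of LPS replicates 1 and 4, STSABs replicate 3, UVABs replicates 1, 2, 4 and 5 and Con replicate 2 was left out, at 0.32 to 0.48 in those fits.

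Among carriers of nucleotides and of coenzymes, Slc25a17 and Slc25a36 rose in ABs against LPS. In LPS against Con 2 of 6 tested members rose and 4 fell (0 and 6 with library totals), with a median log2 fold change of -1.09. Against LPS, 2 rose and 1 fell in UVABs (median 0.01), and 2 rose and 1 fell in STSABs (median -0.12). Slc25a17, a carrier of coenzyme A, NAD and FAD in the peroxisomal rather than the mitochondrial membrane, had 69.7, 67.5, 70.9, 67.6 and 62.1 CPM in UVABs, 67.4, 64.4, 69.3, 70.5 and 68.8 in STSABs, 48.9, 43.9, 41.8, 46.2 and 42.8 in LPS and 31.9, 34.3 and 31.99 in Con. AB libraries were highest, LPS in between and Con lowest, without overlap. UVABs over LPS was 0.60 ± 0.05 (adjusted p = 2.95e-09) and STSABs over LPS 0.61 ± 0.05 (adjusted p = 2.21e-09). Slc25a17 had a log2 fold change of 0.45 ± 0.06 (adjusted p = 4.06e-07) in LPS over Con, but -0.29 with library totals. Slc25a36, a pyrimidine nucleotide carrier, had 34.4, 29.8, 32.8, 33.8 and 34.1 CPM in UVABs, 31.9, 32.3, 38.4, 35.6 and 35.4 in STSABs, 22.9, 21.5, 20.3, 24.2 and 25.7 in LPS and 53.3, 56.2 and 49.6 in Con. Con was highest, ABs in between and LPS lowest, without overlap. Slc25a36 stood at a log2 fold change of -1.21 ± 0.07 (adjusted p = 9.09e-13) in LPS over Con, 0.53 ± 0.07 (adjusted p = 1.25e-06) in UVABs over LPS and 0.60 ± 0.07 (adjusted p = 2.00e-07) in STSABs over LPS.

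Slc25a33, the other pyrimidine nucleotide carrier, had 1.39, 0.778, 0.831, 1.11 and 0.940 CPM in UVABs, 1.33, 1.52, 1.38, 0.994 and 0.999 in STSABs, 1.26, 2.73, 1.65, 1.86 and 2.21 in LPS and 7.06, 5.02 and 7.09 in Con. Con was far above the other groups, and LPS overlapped with both AB groups. Slc25a33 stood at a log2 fold change of -1.72 ± 0.18 (adjusted p = 8.59e-09) in LPS over Con and -0.94 ± 0.23 (adjusted p = 0.00128) in UVABs over LPS. In STSABs over LPS it was -0.64 ± 0.22 (adjusted p = 0.0156), which was lost without LPS replicate 2 (-0.49). Slc25a36 and Slc25a33 thus both fell in LPS and moved in opposite directions in ABs against LPS. Slc25a51, which brings NAD into mitochondria, had 65.8, 83.7, 61.8, 63.4 and 65.6 CPM in UVABs, 62.4, 74.8, 60.02, 68.1 and 62.8 in STSABs, 61.1, 69.2, 72.4, 64.0 and 72.5 in LPS and 48.1, 55.7 and 52.2 in Con. Con was lowest, and the other groups overlapped. For Slc25a51 the log2 fold change was 0.38 ± 0.09 (adjusted p = 5.61e-04) in LPS over Con, but 0.11 with upper-quartile scaling, which did not pass, and -0.36 with library totals, and against LPS Slc25a51 was at 0.00 ± 0.08 (adjusted p = 0.966) in UVABs and -0.05 ± 0.08 (adjusted p = 0.627) in STSABs. Slc25a42, a coenzyme A carrier, fell in LPS (-1.45 ± 0.22, adjusted p = 2.44e-06) and ran at 0.470 to 1.08 CPM in UVABs, 0.585 to 0.764 in STSABs, 0.479 to 1.08 in LPS and 1.99 to 2.31 in Con. Slc25a16, a relative of the coenzyme A carriers known as the Graves disease autoantigen, also fell in LPS (-0.96 ± 0.10, adjusted p = 1.00e-08) and ran at 7.07 to 8.33 CPM in UVABs, 5.96 to 9.12 in STSABs, 7.68 to 9.82 in LPS and 15.4 to 17.7 in Con.

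The mitoferrins Slc25a37 and Slc25a28 bring iron into mitochondria for heme and iron-sulphur clusters. Of 2 tested members, 2 rose and 0 fell in LPS against Con (0 and 2 with library totals), and their median log2 fold change was 0.44. Against LPS, 0 rose and 0 fell in UVABs (median 0.10), and 0 rose and 0 fell in STSABs (median 0.09). Slc25a37 had 56.8, 63.7, 53.3, 59.5 and 62.3 CPM in UVABs, 51.3, 64.6, 56.2, 61.8 and 63.7 in STSABs, 50.9, 64.04, 63.3, 61.4 and 61.3 in LPS and 43.7, 41.9 and 43.9 in Con, and Slc25a28 had 23.9, 32.2, 24.6, 21.6 and 24.7 CPM in UVABs, 22.2, 30.4, 24.9, 22.7 and 24.7 in STSABs, 17.7, 22.8, 22.5, 23.1 and 22.8 in LPS and 15.5, 16.8 and 17.1 in Con. Con was lowest for both genes, and replicate 1 was the lowest LPS library for both. LPS over Con was 0.48 ± 0.08 (adjusted p = 1.14e-05) for Slc25a37 and 0.41 ± 0.12 (adjusted p = 0.00285) for Slc25a28, but -0.27 and -0.34 with library totals, and Slc25a28 did not pass with upper-quartile scaling (0.13). Against LPS, Slc25a37 was at -0.03 ± 0.07 (adjusted p = 0.776) in UVABs and -0.02 ± 0.07 (adjusted p = 0.860) in STSABs, and Slc25a28 at 0.22 ± 0.10 (adjusted p = 0.0633) in UVABs and 0.20 ± 0.10 (adjusted p = 0.0983) in STSABs. Slc25a28 passed in UVABs when any 1 of STSABs replicate 2 and UVABs replicate 4 was left out, in STSABs when UVABs replicate 2 was left out, and in both with library totals (0.26 and 0.25). Globin mRNA of erythroid cells, which use Slc25a37, was scarce: the erythroid markers summed to no more than 14.8 CPM in any library.

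The carriers most like uncoupling proteins had few reads. In LPS against Con 1 of 3 tested members rose and 2 fell (0 and 2 with library totals), with a median log2 fold change of -1.49. Against LPS, 0 rose and 0 fell in UVABs (median 0.17), and 0 rose and 0 fell in STSABs (median 0.26). Slc25a30 had 3.70, 3.95, 4.45, 4.19 and 3.76 CPM in UVABs, 3.19, 5.23, 5.03, 4.15 and 5.40 in STSABs, 3.47, 3.94, 4.53, 3.36 and 3.93 in LPS and 10.4, 12.2 and 9.87 in Con. Con was highest without overlap, and LPS over Con was -1.49 ± 0.13 (adjusted p = 3.27e-10). Against LPS it was at 0.06 ± 0.14 (adjusted p = 0.721) in UVABs and 0.26 ± 0.13 (adjusted p = 0.104) in STSABs, the second past the threshold only when STSABs replicate 1 was left out (0.36). Slc25a27, also called UCP4, had 12 counts over the 5 UVABs libraries, 11 over STSABs, 3 over LPS and 104 over the 3 Con libraries. The level in Con was 34.5 times that in LPS, with a 95% counting interval of 11.5 to 169.8. Slc25a27 passed the filter on low counts through Con alone, the group where it was high. Its fall against Con was therefore favoured by the filter, and the ratio only describes these counts. Slc25a14, also called UCP5, ran at 2.41 to 4.45 CPM in UVABs, 2.86 to 4.06 in STSABs, 2.48 to 3.86 in LPS and 2.13 to 2.57 in Con and rose in LPS (0.42 ± 0.18, adjusted p = 0.0320). That call was lost without LPS replicate 3 (0.33), LPS replicate 4 (0.38), Con replicate 1 (0.41) or Con replicate 2 (0.36), and library totals gave -0.32.

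The remaining members include carriers whose substrate is not settled. Of 5 tested members, 2 rose and 2 fell in LPS against Con (1 and 3 with library totals), and their median log2 fold change was 0.19. Against LPS, 1 rose and 1 fell in UVABs (median -0.32), and 2 rose and 2 fell in STSABs (median -0.30). Slc25a43, an orphan, had 3.70, 5.45, 4.04, 5.24 and 3.94 CPM in UVABs, 3.997, 4.38, 3.89, 4.79 and 3.88 in STSABs, 4.43, 6.06, 6.56, 4.74 and 6.20 in LPS and 2.75, 2.38 and 1.74 in Con. Con was lowest without overlap, and LPS overlapped with both AB groups. Slc25a43 had a log2 fold change of 1.29 ± 0.17 (adjusted p = 2.90e-07) in LPS over Con. STSABs over LPS was -0.42 ± 0.14 (adjusted p = 0.0154), which was lost without LPS replicate 3 (-0.35), and UVABs over LPS was -0.32 ± 0.14 (adjusted p = 0.0544), which passed when any 1 of LPS replicates 1 and 4, UVABs replicates 2 and 4 and Con replicates 1 and 3 was left out. Slc25a46, an outer-membrane protein involved in mitochondrial fission, had 32.4, 27.9, 33.4, 34.9 and 35.2 CPM in UVABs, 34.8, 25.3, 32.04, 36.4 and 31.02 in STSABs, 43.9, 42.8, 42.5, 41.4 and 42.96 in LPS and 37.5, 36.8 and 37.8 in Con. LPS was highest without overlap, and AB libraries were all below Con. It fell against LPS in UVABs (-0.38 ± 0.08, adjusted p = 1.87e-04) and STSABs (-0.42 ± 0.08, adjusted p = 6.63e-05). Slc25a46 stood at a log2 fold change of 0.19 ± 0.08 (adjusted p = 0.0410) in LPS over Con, which did not hold in 16 of 29 alternatives, including each that left out 1 of the 3 Con libraries, and turned with upper-quartile scaling (-0.09) and library totals (-0.55).

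Slc25a45 ran at 41.9 to 44.9 CPM in UVABs, 40.97 to 45.6 in STSABs, 26.02 to 32.5 in LPS and 49.7 to 52.1 in Con. LPS was lowest and Con highest, without overlap. For Slc25a45 the log2 fold change was -0.77 ± 0.06 (adjusted p = 1.81e-10) in LPS over Con, 0.54 ± 0.06 (adjusted p = 7.14e-08) in UVABs over LPS and 0.54 ± 0.06 (adjusted p = 8.38e-08) in STSABs over LPS. Slc25a35 ran at 1.25 to 1.92 CPM in UVABs, 1.17 to 2.25 in STSABs, 0.848 to 1.32 in LPS and 3.15 to 3.68 in Con. It fell in LPS (-1.63 ± 0.18, adjusted p = 3.04e-08). Against LPS it was 0.44 ± 0.20 (adjusted p = 0.0628) in UVABs and 0.59 ± 0.20 (adjusted p = 0.0133) in STSABs. The STSABs call was lost without STSABs replicate 2 (0.46). The UVABs value passed with library totals (0.48) and in a fit of only the groups compared (0.46). It also passed when any 1 of LPS replicate 1, STSABs replicate 2 and UVABs replicate 3 was left out (0.44 to 0.52). Slc25a47, known mainly from liver, ran at 0.408 to 0.599 CPM in UVABs, 0.425 to 0.599 in STSABs, 0.359 to 0.737 in LPS and 0.325 to 0.578 in Con and passed in no comparison.

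**Figure D2:**
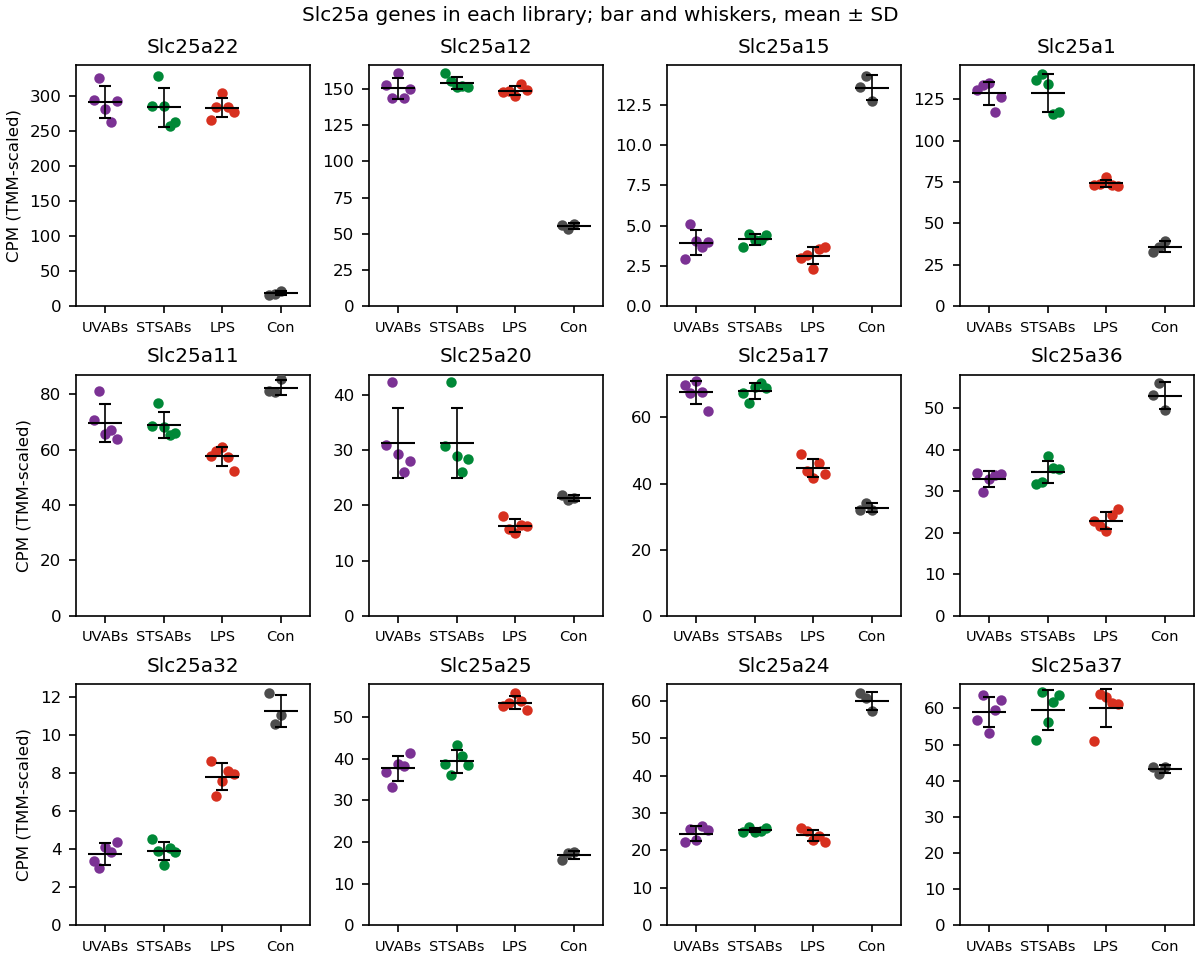
CPM of 12 Slc25a genes in each library of UVABs, STSABs, LPS and Con, on a linear axis that starts at 0. Each point is a library, the bar is the group mean and the whiskers its SD (n = 5, and 3 in Con). Slc25a22 lies at 262 to 326 CPM in UVABs and at 16.1 to 21.5 CPM in Con, Slc25a1 is highest in the AB groups, and Slc25a32 is lowest in them.

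Against Con, the AB groups give the carriers' difference from the mock state. In UVABs 15 of 38 members rose and 19 fell, where 40.2% of all tested genes rose and 42.4% fell. In STSABs 15 rose and 19 fell, where 40.0% rose and 42.6% fell. In each, library totals left 5 members higher and 27 lower, and upper-quartile scaling 10 and 21. Slc25a22 was 3.99 ± 0.10 (adjusted p = 1.78e-19) in UVABs and 3.95 ± 0.10 (adjusted p = 2.06e-19) in STSABs. Slc25a1 was 1.84 ± 0.07 (adjusted p = 4.81e-16) in UVABs and 1.84 ± 0.07 (adjusted p = 4.77e-16) in STSABs, and Slc25a17 1.05 ± 0.06 (adjusted p = 2.89e-13) and 1.06 ± 0.06 (adjusted p = 2.42e-13). Slc25a33 was -2.65 ± 0.20 (adjusted p = 3.06e-11) in UVABs and -2.36 ± 0.19 (adjusted p = 1.29e-10) in STSABs, and Slc25a32 -1.59 ± 0.11 (adjusted p = 9.79e-12) and -1.53 ± 0.11 (adjusted p = 1.78e-11). Slc25a20 was lower in LPS than in Con and higher than Con in both AB groups, at 0.55 ± 0.14 (adjusted p = 8.97e-04) in UVABs and 0.55 ± 0.14 (adjusted p = 8.81e-04) in STSABs. With upper-quartile scaling Slc25a20 did not pass against Con in UVABs (0.28) or STSABs (0.28), and with library totals it was at -0.16 and -0.15. Slc25a4 did not pass in either AB group against Con, at -0.10 ± 0.07 (adjusted p = 0.164) in UVABs and -0.13 ± 0.07 (adjusted p = 0.0738) in STSABs. Both became calls with replicate 2 of both AB groups left out (-0.16 in UVABs and -0.17 in STSABs), with upper-quartile scaling (-0.37 and -0.40) and with library totals (-0.81 and -0.83), the UVABs value also without UVABs replicate 2, and the STSABs value also when any 1 of STSABs replicate 2, UVABs replicate 2 and Con replicate 1 was left out. Slc25a26, for which LPS and Con overlapped, was -0.91 ± 0.15 (adjusted p = 1.20e-05) in UVABs and -0.90 ± 0.15 (adjusted p = 1.27e-05) in STSABs. Slc25a12 was 1.44 and 1.48, Slc25a25 1.16 and 1.23, Slc25a15 -1.78 and -1.71, and Slc25a36 -0.68 and -0.61, all past the threshold.

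The ratio of counts of related carriers within a library does not depend on the scaling. The pairs were chosen after the values were seen, so the ratios are a description, and since gene lengths differ only their change between groups can be read. Slc25a12 over Slc25a13, the aspartate-glutamate carriers, was 14.2 to 17.04 in UVABs, 14.1 to 15.6 in STSABs, 12.7 to 18.2 in LPS and 3.13 to 3.38 in Con. Slc25a25 over Slc25a24, of the ATP-Mg/phosphate carriers, was 1.29 to 1.71 in UVABs, 1.37 to 1.73 in STSABs, 2.02 to 2.45 in LPS and 0.252 to 0.306 in Con. In both pairs every Con library was below all others. Slc25a1 over Slc25a11 was 1.65 to 2.06 in UVABs, 1.77 to 2.0 in STSABs, 1.24 to 1.39 in LPS and 0.404 to 0.458 in Con, and Slc25a1 over Slc25a10 4.05 to 4.48 in UVABs, 3.84 to 4.70 in STSABs, 2.09 to 2.22 in LPS and 1.60 to 1.81 in Con. For both, AB libraries were above LPS and LPS above Con, without overlap. Slc25a36 over Slc25a33 was 24.7 to 39.5 in UVABs, 21.3 to 35.8 in STSABs, 7.89 to 18.2 in LPS and 7.01 to 11.2 in Con, again with every AB library above every LPS library. Slc25a4 over Slc25a5 was 0.304 to 0.371 in UVABs, 0.298 to 0.372 in STSABs, 0.249 to 0.289 in LPS and 0.318 to 0.337 in Con, lowest in LPS. The glutathione carriers Slc25a39 and Slc25a40 had ratios of 0.880 to 1.15 in UVABs, 0.851 to 1.10 in STSABs, 0.981 to 1.11 in LPS and 0.936 to 1.22 in Con, which overlapped in all groups, and the mitoferrins Slc25a37 and Slc25a28 had 1.98 to 2.75 in UVABs, 2.12 to 2.72 in STSABs, 2.66 to 2.88 in LPS and 2.50 to 2.83 in Con.

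**Figure D3:**
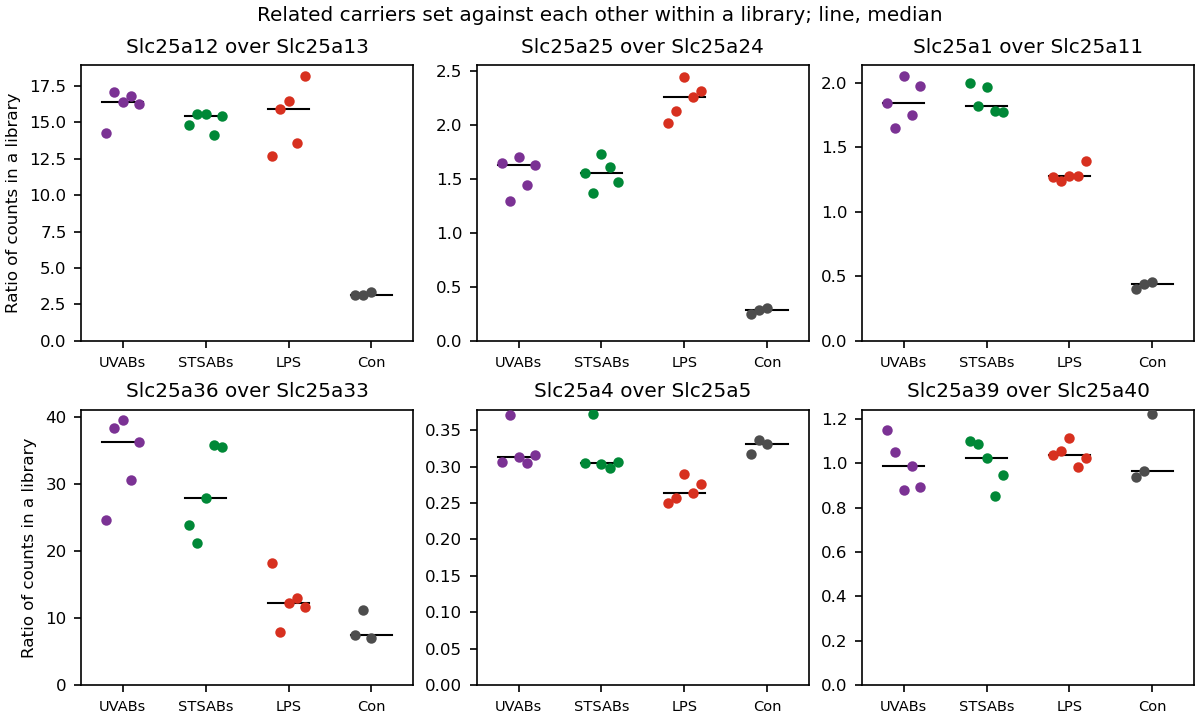
Ratio of the counts of 2 related Slc25a genes within each library, for 6 pairs, on linear axes that start at 0, with libraries as points and group medians as lines. Slc25a12 over Slc25a13 is 12.7 to 18.2 in LPS and 3.13 to 3.38 in Con, and Slc25a39 over Slc25a40 overlaps in all 4 groups.

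Scaling set the direction of several members in the comparisons with Con. The median log2 fold change of all tested genes in LPS over Con was -0.03 with TMM, -0.31 with upper-quartile scaling and -0.78 with library totals, and higher genes made up 48.2%, 36.03% and 21.2% of the calls. The members' median was -0.27, -0.55 and -1.01 under the same scalings. Under all 4 scalings, including DESeq2 size factors, 6 members rose in LPS against Con: Slc25a22, Slc25a25, Slc25a12, Slc25a43, Slc25a1 and Slc25a44. Of the 20 members lower with TMM, 19 fell under all 4, all but Slc25a5. Against LPS, 12 members rose and 7 fell in UVABs under all 4 scalings, and 12 rose and 8 fell in STSABs, each time all but Slc25a10. Against Con, Slc25a22, Slc25a1, Slc25a12, Slc25a25 and Slc25a17 rose in both AB groups under all 4.

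**Figure D4:**
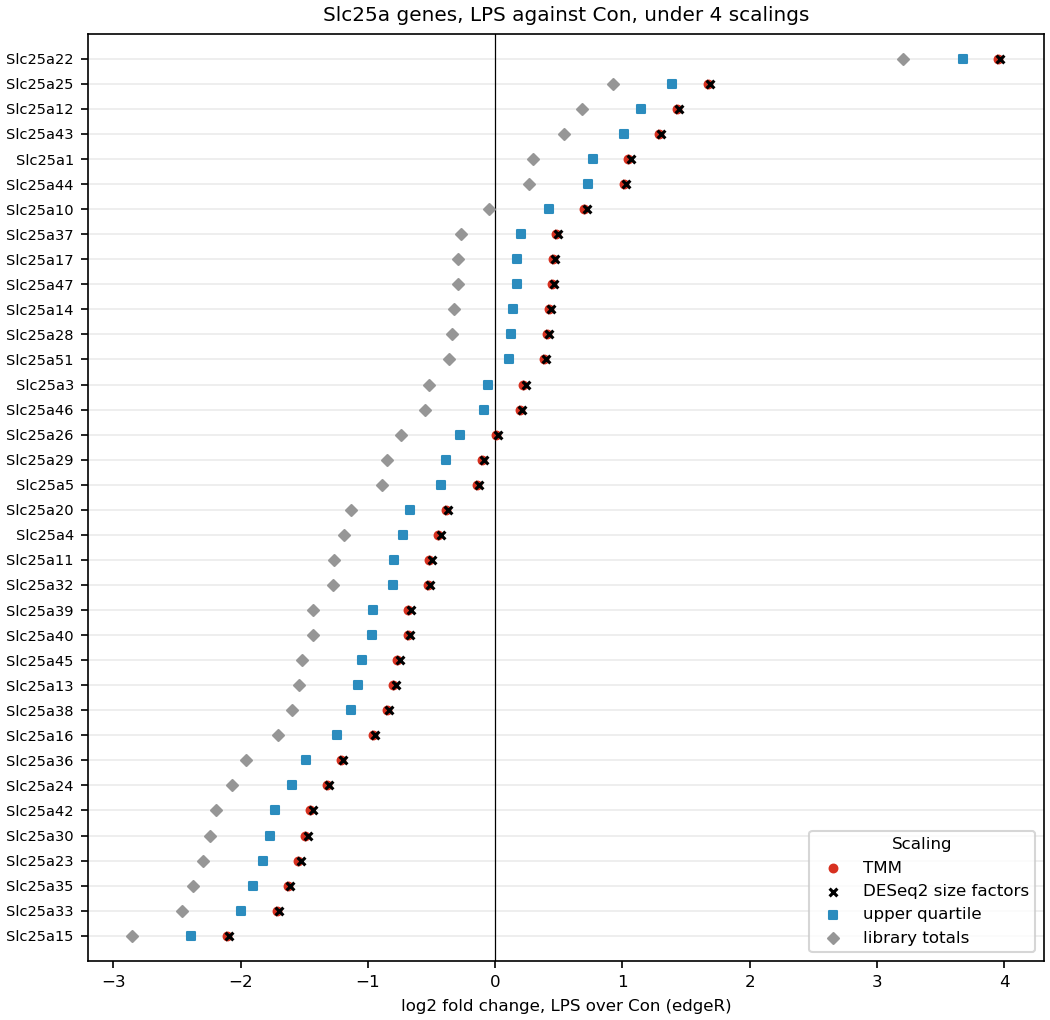
Log2 fold change of LPS over Con of 36 Slc25a genes under 4 scalings, sorted by the TMM value; Slc25a27 is not drawn because LPS held 3 counts of it. Library totals put each gene lowest and upper-quartile scaling next, and Slc25a10 lies at -0.05 with library totals and at 0.70 with TMM, while Slc25a22 stays at 3.20.

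Carriers reach the inner membrane through import proteins, and 13 of these were tested. In LPS against Con 3 of 13 tested members rose and 5 fell (1 and 12 with library totals), with a median log2 fold change of 0.02. Against LPS, 1 rose and 6 fell in UVABs (median -0.16), and 2 rose and 7 fell in STSABs (median -0.19). Of all tested genes 40.0% rose and 43.0% fell in LPS against Con, and 28.4 to 29.0% rose or fell in the AB groups against LPS, and the lists that follow are read against the same shares. Tomm70a, the receptor for carriers at the outer membrane, rose in LPS by 1.63 (adjusted p = 8.17e-15), and Tomm20, the receptor for proteins with a presequence, fell (-1.02). Of the chaperones of the intermembrane space, Timm9 (-1.80) and Timm8a1 (-1.72) fell in LPS. Against LPS, Timm10 was -0.81 (adjusted p = 8.12e-06) in UVABs and -1.004 (adjusted p = 6.61e-07) in STSABs, Timm9 -1.10 and -0.85, and Timm29 and Agk, subunits of the carrier translocase, -0.55 and -0.53, and -0.63 and -0.56, all past the threshold.

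Of 21 tested genes for mitochondrial transport outside the family, 4 rose and 15 fell in LPS against Con, with a median of -0.31 (2 and 19 with library totals). Tspo, an outer-membrane protein that binds cholesterol, rose by 2.09 (adjusted p = 4.02e-17), and the sideroflexin Sfxn3 fell (-1.59). The uniporter subunit Mcu was at -0.48 (adjusted p = 3.68e-05) and the pyruvate carrier subunit Mpc2 at -0.21 (adjusted p = 0.00839). Against LPS, 7 rose and 6 fell in UVABs and 6 rose and 5 fell in STSABs. The outer-membrane channel Vdac1 was 0.38 (adjusted p = 1.44e-07) in UVABs and 0.39 (adjusted p = 7.97e-08) in STSABs, and Vdac2 was -0.33 (adjusted p = 1.69e-05) and -0.34 (adjusted p = 1.33e-05).

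Of 27 tested enzymes that act on the carriers' substrates, 11 rose and 13 fell in LPS against Con (median -0.07; 3 and 24 with library totals), and in UVABs and STSABs against LPS 11 rose and 8 fell (medians 0.06 and 0.08). Crat, which makes acetylcarnitine, was -2.37 (adjusted p = 1.14e-19) in LPS, and Shmt2, which loads mitochondrial folate with a carbon unit, -2.17 (adjusted p = 4.73e-16). Alas1, the first enzyme of heme synthesis, was 1.69 (adjusted p = 1.31e-15). Acly, which splits the citrate that Slc25a1 exports, was 0.16 (adjusted p = 0.0203), but -0.59 with library totals. Against LPS, Got1, the cytosolic enzyme of the malate-aspartate shuttle, was 1.08 (adjusted p = 2.83e-07) in UVABs and 1.08 (adjusted p = 3.01e-07) in STSABs. The folate enzyme Mthfd2 was 0.67 and 0.65, while the folate carrier Slc25a32 fell. Gclm, a subunit of the enzyme that starts glutathione synthesis, was -0.95 and -0.95, while the glutathione carriers Slc25a39 and Slc25a40 rose. All values against LPS in these sentences passed the threshold.

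Of 9 tested factors for mitochondrial biogenesis, 3 rose and 5 fell in LPS against Con (median -0.35; 0 and 9 with library totals). The coactivator Ppargc1b was -4.06 (adjusted p = 1.06e-14) and Myc -1.67 (adjusted p = 5.96e-14). In UVABs and in STSABs against LPS, 0 rose and 5 fell (medians -0.33 and -0.32), led by the coactivator Pprc1, at -1.63 (adjusted p = 4.03e-12) in UVABs and -1.53 (adjusted p = 8.07e-12) in STSABs. Of the family genes under other symbols, 4 were tested, and 3 fell in LPS against Con: Ucp3 (-2.68), Ucp2 (-0.33) and Mtch2 (-0.22), of which Ucp2 is the uncoupling protein of immune cells. Mtch2 also fell against LPS, at -0.18 (adjusted p = 0.00374) in UVABs and -0.20 (adjusted p = 0.00155) in STSABs. The 13 messenger RNAs of the mitochondrial genome were absent from the deposited counts under the symbols searched, so they were not analysed.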

How the data were processed

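Poly(A) RNA of 18 libraries was sequenced from both ends, per the labels' protocols, after a preparation that marks the second strand with dUTP. HISAT2 and the build mm39 were used, per the submitters' processing notes. The sources used here give neither the counting tool nor its strand setting or annotation, so reads of an antisense or overlapping gene cannot be separated. The authors deposited estimated counts per gene symbol, without normalization, and 6.35% of values, in 2017 genes, were not whole numbers. They were rounded to whole numbers.

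Genes were filtered with filterByExpr by group, and edgeR 4.0.16 in R 4.3.3 was used for TMM scaling and the quasi-likelihood F-test, fitted to all 18 libraries, with Benjamini-Hochberg adjustment over 12465 genes at 0.05. SE was derived from the F statistic. The test was also run on simulated independent libraries in which a small part of the genes changed, in LPS alone. Such counts do not test the scaling against Con, where most genes were called, or deviations shared between libraries. Totals of 17588400 to 18675300 set the precision, and counting intervals (95%, exact Poisson) cover counting error only. Alternatives were DESeq2 1.42.0, limma-voom (limma 3.58.1), other scalings, other filters, fewer libraries and a replicate block. No pair of libraries in a group agreed within sampling noise. Same-numbered STSABs and UVABs libraries deviated together in all 5 pairs, with correlations of 0.143 to 0.687 over genes. Other-numbered pairs of any groups ran from -0.508 to 0.310, the highest being STSABs replicate 5 with UVABs replicate 4. The ranges overlap, so whether libraries were paired by number is not settled. 

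The members and lists were chosen with earlier results of these data known. Values of 1 tested member are not reported here, though it is included in the counts and medians. Members given with every library are the 4 largest and 4 smallest log2 fold changes called in LPS over Con and in STSABs over LPS, among members whose higher group averaged 5 CPM or more, and 13 members chosen for known roles. Of other lists, up to 4 genes with the smallest adjusted p were to be named; Acly, Mcu, Mpc2, Ucp2 and Vdac2 were named with their values seen. Promoters are from the RefSeq table, GRCm38.p6.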

Additional observations from a re-analysis of the deposited data

Results flagged for a closer look

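In 6 of 75 groups of 5 libraries, over the 25 genes given with every library, the highest or lowest library stood apart from the other 4 (Dixon's test at 95%). Chance gives about 1 in 20. Slc25a1 was 78.1 CPM in LPS replicate 3, against 72.6 to 73.7 CPM in the other LPS libraries. Slc25a10 was 37.3 CPM in the same library, against 32.9 to 34.0 CPM. Slc25a28 was 17.7 CPM in LPS replicate 1, against 22.5 to 23.1 CPM, and Slc25a37 was 50.9 CPM in that library, against 61.3 to 64.0 CPM. Slc25a11 was 76.8 CPM in STSABs replicate 2, against 65.1 to 68.4 CPM, and Slc25a51 was 83.7 CPM in UVABs replicate 2, against 61.8 to 65.8 CPM.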

How the results depend on the processing

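Of 4375 values of the 25 named genes under 30 alternatives, 4241 kept their call or stayed without one, 75 lost the call, 38 gained it and 21 turned. A value without a call in both fits was counted as kept whatever its sign, so turns among such values are not in the 21. Library totals left 5 members higher in UVABs against Con, 5 in STSABs against Con and 6 in LPS against Con. With library totals the log2 fold change turned in UVABs against Con for Slc25a20 -0.16, Slc25a10 -0.17, Slc25a3 -0.37, Slc25a28 -0.078, Slc25a37 -0.25 and Slc25a51 -0.32, in STSABs against Con for Slc25a20 -0.15, Slc25a10 -0.19, Slc25a3 -0.40, Slc25a28 -0.094, Slc25a37 -0.23 and Slc25a51 -0.36, and in LPS against Con for Slc25a17 -0.29, Slc25a46 -0.55, Slc25a10 -0.046, Slc25a3 -0.52, Slc25a28 -0.34, Slc25a37 -0.27 and Slc25a51 -0.36. With upper-quartile scaling it turned in LPS against Con for Slc25a46 -0.086 and Slc25a3 -0.057. Without a library in turn, members higher and lower numbered 10 to 14 and 7 to 10 in UVABs against LPS, 11 to 13 and 7 to 10 in STSABs against LPS, 13 to 15 and 19 to 20 in LPS against Con, 14 to 15 and 17 to 19 in UVABs against Con, 14 to 15 and 19 to 21 in STSABs against Con, and 0 in UVABs against STSABs. With the replicate number as a block, members higher and lower were 14 and 8 in UVABs against LPS, 13 and 9 in STSABs against LPS, 14 and 20 in LPS against Con and 0 in UVABs against STSABs, also in a block fit of the AB groups alone that was chosen after seeing the data. The block also gave a call to Slc25a28 in UVABs (0.22) and STSABs (0.19) and to Slc25a3 (0.11) and Slc25a27 in UVABs against LPS, and took that of Slc25a23 in UVABs against LPS (0.47) and of Slc25a46 in LPS against Con (0.16). Across all groups, 8 of 24 same-numbered pairs had a correlation over 0.1 and 11 of 18 libraries correlated best with their own number. Con with 3 libraries and few reads limit Slc25a14, Slc25a15, Slc25a23, Slc25a26, Slc25a27, Slc25a29, Slc25a33, Slc25a35, Slc25a42 and Slc25a47. The cause of these changes was not tested, except that scalings shift all genes alike.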
